A study of Rattus norvegicus with 12 samples.

Results

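The genes described here carry newly made proteins into the endoplasmic reticulum (ER) and onward to the Golgi in the fat pad beside the rat epididymis. They were chosen by symbol: genes of the signal recognition particle and its receptor, the Sec61 translocon, the translocon-associated (TRAP) complex, signal peptidase, the COPII and COPI coats, the Sec22 SNAREs, the p24 family, the KDEL receptors and the LMAN lectins. Of 14506 genes measured by a probe set with 1 platform gene symbol, 56 met this rule, and for Srp72, which had 3 probe sets, the brightest was used. Tmed7 was not among them because its probe set is shared with Ticam2. Copg2, Sec16a, Sec22c, Sec23b, Sec24c, Spcs2, Spcs3 and Tmed10 were not among the 56 either.

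The rats were male Sprague-Dawley animals in 3 nutritional states, with 4 rats in each: fed (Fed), fasted to phase 2 (P2) and fasted to phase 3 (P3). No age, body mass or duration of the fast was among the labels used here. In prolonged fasting, phase 2 is the stage at which stored fat supplies most of the energy and body protein is spared, and phase 3 is the stage at which fat is running out and protein loss climbs. Each rat gave 1 Affymetrix Rat Gene 1.0 ST array of whole epididymal white adipose tissue, so adipocytes, progenitors, vessels and immune cells were measured together. In such bulk tissue, fewer cells of a type and less RNA per cell cannot be told apart. The values are log2 levels made with RMA, and a difference of 1 on this scale is a doubling.

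One protocol field of the labels speaks of liver where all the others name adipose tissue. Adipoq, the adiponectin gene, had mean log2 levels of 13.15 in Fed rats, 13.09 in P2 rats and 11.63 in P3 rats. The 12 hepatocyte genes measured averaged between 4.64 and 5.05 in the 12 rats, and the highest of them, Alb, averaged 8.33 in Fed rats, 9.62 in P2 rats and 6.73 in P3 rats. As a guide to dim signal, 53 olfactory receptor genes averaged 3.76, with a 95th percentile of 5.66. Among the ER and coat genes, 50 of 56 were brighter than the median gene, and Tmed6, Lman1l and Sec31b, with means of 4.08, 4.39 and 5.08, lay below that percentile.

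A protein bound for the cell surface or for secretion is recognised by the signal recognition particle as its signal sequence leaves the ribosome, is threaded through the Sec61 channel and loses its signal peptide to signal peptidase. Folded cargo leaves the ER in COPII-coated vesicles, helped by p24 proteins and lectins that bind it, while COPI-coated vesicles carry escaped ER residents, caught by the KDEL receptors, back from the Golgi. Fat cells secrete hormones such as leptin and adiponectin by this route, and their neighbouring fibroblasts export collagen through it.

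Many genes of this pathway are known to respond to transcription factors of the unfolded protein response and of the Creb3 family, so the promoters were searched for letters these factors are known to read. Of the 56 genes, 51 had a RefSeq promoter window on assembly GRCr8, which covers 250 bases before the transcription start and 50 after it. Sec61a1, Sar1a, Sec61a2, Sec24d and Kdelr2 had none in the table. The motif TGACGTGG, called the UPRE core here, was searched on both strands and was found in 6 of these 51 windows (11.8%). It occurred in 0.637% of the windows of all 27457 genes in the table and in 0.761% of those of 11951 genes tested on the arrays. The stretches of 60 bases around the 6 matches are shown because they hold this motif in genes of 4 different roles, with the motif in capitals. Each is written on the strand of its gene from 5′ to 3′, so that CCACGTCA is the same motif read on the opposite strand.

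Copa, chr13:87078858-87078917, plus strand: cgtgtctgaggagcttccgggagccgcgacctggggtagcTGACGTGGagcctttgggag
Copb1, chr1:177872813-177872872, minus strand: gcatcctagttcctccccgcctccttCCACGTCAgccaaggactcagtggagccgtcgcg
Copb2, chr8:108040651-108040710, plus strand: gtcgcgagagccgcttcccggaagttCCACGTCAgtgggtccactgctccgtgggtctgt
Kdelr3, chr7:112959505-112959564, plus strand: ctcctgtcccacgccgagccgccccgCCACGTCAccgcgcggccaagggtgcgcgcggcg
Sec23a, chr6:82440962-82441021, minus strand: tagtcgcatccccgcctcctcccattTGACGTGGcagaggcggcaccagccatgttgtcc
Srp19, chr18:26205707-26205766, plus strand: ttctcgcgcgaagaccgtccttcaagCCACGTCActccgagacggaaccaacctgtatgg

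Copa, Copb1 and Copb2 encode COPI subunits, Kdelr3 a KDEL receptor, Sec23a a COPII subunit and Srp19 a protein of the signal recognition particle. The ER stress element ERSE, which joins CCAAT to CCACG across a spacer, was in 0 of the 51 windows and in 0.0765% of all windows. The more compact ERSE-II was in 0 and in 0.0546%. The parts alone are common. CCAAT was in 39.2% of the ER and coat gene windows and 37.7% of all windows, and CCACG, which the UPRE core contains, was in 54.9%, against 39.6% of the tested genes' windows and 32.5% of all windows. The median GC content was 59.7% in the ER and coat gene windows, against 58.0% in those of the tested genes and 52.3% in all windows. Windows without a match say nothing about which factors act on a gene. The whole windows of Kdelr3 and Tmed5 are shown because these genes had the largest fall and the largest rise of the set, with CCAAT and CCACG on either strand in capitals.

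Kdelr3, chr7:112959382-112959681, plus strand: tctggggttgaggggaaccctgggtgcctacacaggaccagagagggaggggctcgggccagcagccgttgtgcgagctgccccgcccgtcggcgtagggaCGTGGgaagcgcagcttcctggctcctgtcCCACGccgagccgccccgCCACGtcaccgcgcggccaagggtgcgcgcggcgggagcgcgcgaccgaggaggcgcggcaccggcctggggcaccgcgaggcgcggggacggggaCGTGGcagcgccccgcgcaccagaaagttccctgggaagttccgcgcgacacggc
Tmed5, chr14:1752607-1752906, plus strand: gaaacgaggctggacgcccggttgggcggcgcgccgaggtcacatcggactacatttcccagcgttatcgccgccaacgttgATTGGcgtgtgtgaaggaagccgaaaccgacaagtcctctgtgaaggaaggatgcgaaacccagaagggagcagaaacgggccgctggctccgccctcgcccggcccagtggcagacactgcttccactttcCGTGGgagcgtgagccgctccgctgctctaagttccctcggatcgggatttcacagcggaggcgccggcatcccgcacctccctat

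The Kdelr3 window held 4 copies of CCACG and 0 of CCAAT, and the Tmed5 window 1 of each.

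Most of the pathway was lower in fasted fat. In P2 rats 38 of the 56 genes were lower than in Fed rats and 1, Tmed5, was higher, by limma's two-sided test with p-values adjusted by the Benjamini-Hochberg method over all 14506 genes and called below 0.05. Of all genes, 15.5% were called lower and 9.66% higher in that comparison. In P3 rats 37 were lower and 6 higher than in Fed rats, where 24.3% of all genes were lower and 21.1% higher. The median change of the 56 genes was -0.37 in P2 and -0.54 in P3 against Fed, beside 0.01 and 0.05 over all genes tested.

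The falls were mostly modest. Against Fed rats, 2 genes were at least 2-fold lower in P2 and 9 in P3, and only Tmed5 was at least 2-fold higher, in P3. Of all 14506 genes, 265 were called and at least 2-fold lower in P2 and 907 in P3. Those called and at least 2-fold higher were 167 in P2 and 472 in P3. Averaged over the 56 genes, the log2 level was 9.47, 9.43, 9.44 and 9.45 in the 4 Fed rats, 9.04, 9.0, 9.10 and 9.12 in the P2 rats and 8.94, 8.94, 9.07 and 9.02 in the P3 rats. Every fasted rat lay below every fed rat on this average, and P3 rats 3 and 4 lay within the P2 range.

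The 56 genes are mostly bright, and bright genes were called lower more often. Without the dimmest 40% of genes, 24.9% of the remaining 8703 genes were lower in P2 and 36.6% in P3 than in Fed rats. Of the 56 genes, 53 remained, and 39 of these were lower in P2 and 36 in P3. The median of the 56 lay at percentile 88.1 of level, so the 8703 genes are not matched to them in brightness. The share of the 8703 genes called higher was not counted. The median of all tested genes shifted by -0.065 in P2 against Fed arrays and by -0.155 in P3 against Fed arrays. With arrays centred on those medians, 35 of the 56 genes were lower and 2 higher in P2, where 12.4% and 14.0% of all genes were called, and 34 were lower and 10 higher in P3, where 18.4% and 42.2% of all genes were called.

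**Figure D1:**
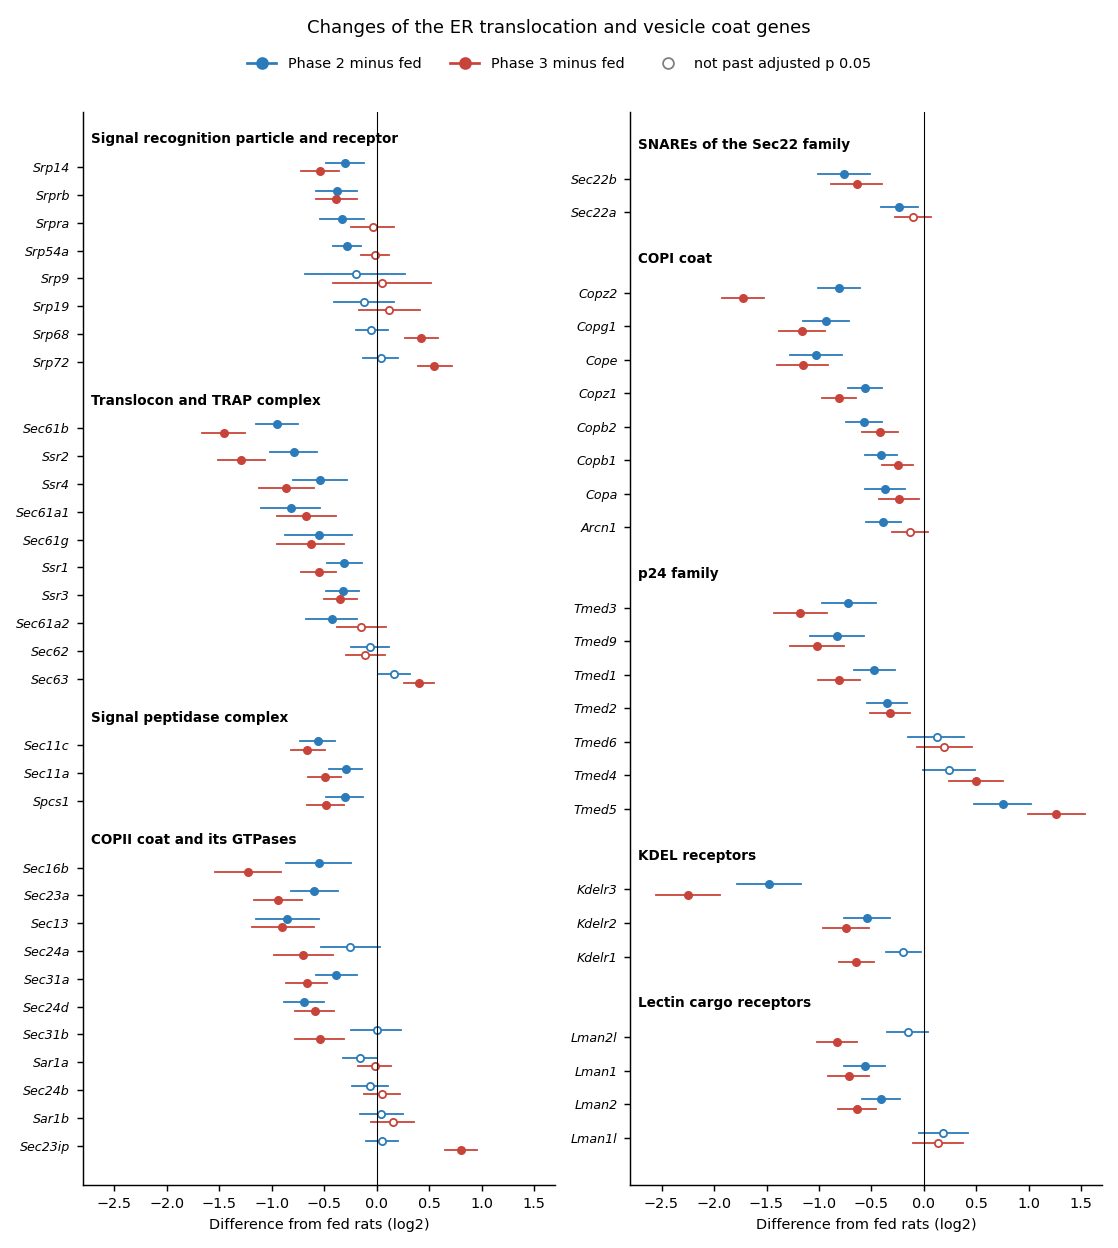
Change in log2 level of each of the 56 genes in P2 against Fed rats and in P3 against Fed rats, grouped by role. Points are differences of group means (n = 4 rats each) with 95% confidence intervals from limma, open where the test was not passed. Kdelr3 reached -1.48 in P2 and -2.25 in P3, and Tmed5 reached 0.75 and 1.26 on the other side of 0.

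Of 8 genes of the signal recognition particle and its receptor, 4 were lower and 0 higher in P2 than in Fed rats, and 2 were lower with centred arrays. In P3, 2 were lower and 2 higher than in Fed rats, which was 25.0% each way, close to the 24.3% and 21.1% over all genes, and the median was 0.02. Srp72, which with Srp68 binds the RNA of the particle, had log2 levels of 10.51, 10.59, 10.41 and 10.39 in Fed rats, 10.51, 10.59, 10.57 and 10.38 in P2 rats and 10.96, 11.09, 10.98 and 11.09 in P3 rats. All P3 rats were above all other rats, while the P2 and Fed rats overlapped. Its change in P3 against Fed was 0.55 ± 0.078 (SE, adjusted p = 4.08e-05).

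Its partner Srp68 had the same order. Srp68 levels were 9.66, 9.57, 9.62 and 9.65 in Fed rats, 9.55, 9.49, 9.63 and 9.64 in P2 rats and 9.93, 10.04, 10.12 and 10.12 in P3 rats. Again every P3 rat was above the rest, and the gene rose by 0.42 ± 0.0726 in P3 against Fed (adjusted p = 0.000238).

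Srp14, part of the domain that slows translation while the ribosome docks, went the other way. Its levels were 8.57, 8.39, 8.43 and 8.53 in Fed rats, 8.08, 8.06, 8.22 and 8.36 in P2 rats and 7.97, 8.0, 7.92 and 7.86 in P3 rats. The 3 groups did not overlap, and Srp14 fell by 0.30 ± 0.0834 in P2 and by 0.54 ± 0.0834 in P3 against Fed. The P3 fall held in all 20 alternative settings, whereas the P2 fall (adjusted p = 0.0158, range 0.00688 to 0.054 among alternatives) ended in 5 of them: the 3 other normalizations, leaving out Fed rat 1 and leaving out P2 rat 2.

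Srprb, the membrane-anchored subunit of the receptor, had 8.85, 8.76, 8.66 and 8.75 in Fed rats, 8.39, 8.16, 8.44 and 8.51 in P2 rats and 8.24, 8.32, 8.51 and 8.41 in P3 rats. Both fasted groups lay below the fed rats and overlapped each other, with changes of -0.38 in P2 and -0.39 in P3. Srpra, the other receptor subunit, and Srp54a, which binds the signal sequence, were lower in P2 only, by -0.33 and -0.28; in P3 they differed from Fed by -0.03 and -0.02 (adjusted p = 0.79 and 0.85). The P2 call of Srpra (adjusted p = 0.0212, range 0.0131 to 0.0694 among alternatives) ended with centred or quantile-normalised arrays and without any 1 of Fed rats 1 and 2 and P2 rats 2 and 3. Neither Srp19, which helps the particle assemble, nor Srp9, the partner of Srp14, passed the test in any comparison; Srp9 changed by -0.20 ± 0.219 in P2 and 0.05 ± 0.219 in P3 against Fed, with 1 low rat in each of the P2 and Fed groups.

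**Figure D2:**
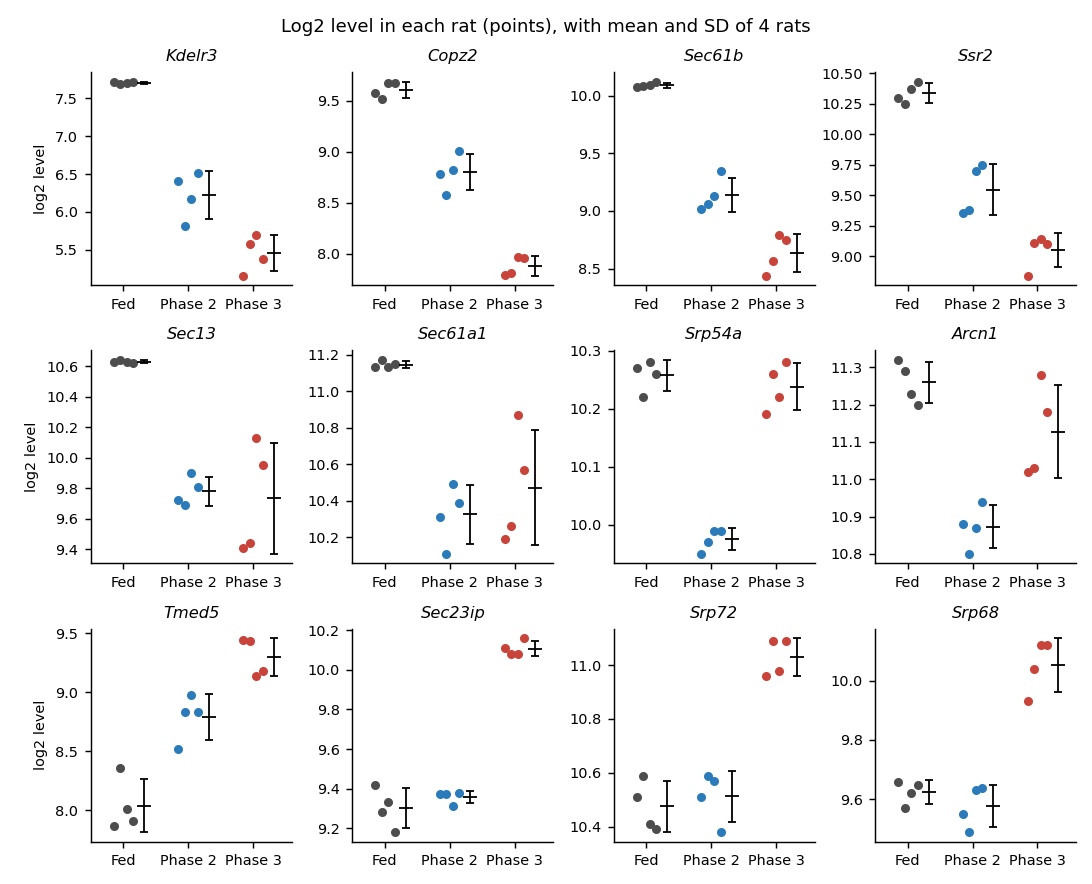
Log2 level of selected ER and coat genes in each rat, in the order Fed, P2 and P3. Points are rats (4 per group), and the bars beside them are group means with SD. Kdelr3, Copz2 and Sec61b step down through the stages, whereas Tmed5 steps up and Sec23ip is high in P3 rats only.

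Genes of the translocon and of the TRAP complex that sits beside it were mostly lower in both phases. Of 10 genes, 8 were lower and 0 higher in P2 (8 and 1 with centred arrays) and 7 were lower and 1 higher in P3 than in Fed rats, with medians of -0.49 and -0.59. Over all genes, 15.5% were lower and 9.66% higher in P2 (12.4% and 14.0% with centred arrays), and 24.3% and 21.1% in P3. Sec61b, the beta subunit of the channel, had log2 levels of 10.07, 10.08, 10.09 and 10.12 in Fed rats, 9.02, 9.06, 9.13 and 9.35 in P2 rats and 8.44, 8.57, 8.79 and 8.75 in P3 rats. The 3 groups stood apart with no overlap. Sec61b fell by 0.95 ± 0.0943 in P2 against Fed (adjusted p = 8.21e-06) and by 1.45 ± 0.0943 in P3 against Fed (2.74-fold, adjusted p = 2.29e-08).

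Sec61a1, which forms the pore itself, fell by 0.82 in P2 and by 0.67 in P3, and Sec61g, the small gamma subunit, by 0.55 and 0.63. For Sec61g the Fed and P2 rats overlapped: Fed rat 2, at 8.94, lay below P2 rats 2 and 3, at 9.04 and 8.95. In P3 the rats differed for Sec61a1: the levels were 10.19 and 10.26 in rats 1 and 2 and 10.87 and 10.57 in rats 3 and 4, all below the fed rats. Sec61a2, a second pore gene, was lower in P2 by -0.43 (adjusted p = 0.00991) and differed from Fed by -0.15 in P3 (adjusted p = 0.287).

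All 4 TRAP genes, which help some signal sequences open the channel, were lower in both phases. For Ssr2 the levels were 10.3, 10.25, 10.37 and 10.43 in Fed rats, 9.35, 9.38, 9.70 and 9.75 in P2 rats and 8.84, 9.11, 9.14 and 9.10 in P3 rats. Each group lay wholly below the one before it, and the changes against Fed were -0.79 in P2 and -1.29 in P3 (2.44-fold, adjusted p = 2.24e-07).

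Ssr1 had 9.99, 9.87, 10.07 and 10.04 in Fed rats, 9.58, 9.69, 9.79 and 9.69 in P2 rats and 9.48, 9.47, 9.46 and 9.34 in P3 rats. Its steps were smaller, with changes of -0.31 in P2 and -0.55 in P3 against Fed, and the groups again did not overlap. Ssr4 had 9.79, 9.70, 9.85 and 9.95 in Fed rats, 9.31, 8.89, 9.42 and 9.49 in P2 rats and 8.94, 9.13, 8.79 and 8.97 in P3 rats. Both fasted groups were below the fed rats, by -0.54 in P2 and -0.86 in P3, and P2 rat 2 lay within the P3 range. Ssr3 fell least, by 0.32 in P2 and by 0.35 in P3.

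Sec62 and Sec63 serve the channel in the import of some short and slow proteins, and neither was lower. Sec63, which brings the chaperone BiP to the channel, had 9.52, 9.49, 9.45 and 9.47 in Fed rats, 9.64, 9.72, 9.56 and 9.68 in P2 rats and 9.89, 9.96, 9.79 and 9.90 in P3 rats. The groups did not overlap, and in P3 the gene was higher than in Fed rats by 0.40 ± 0.0695 (adjusted p = 0.000249). In P2 its difference of 0.17 did not pass (adjusted p = 0.0999, range 0.0171 to 0.226 among alternatives), although it was called with arrays centred, quantile-normalised or cyclic-loess normalised. Sec62 changed by -0.06 in P2 and -0.11 in P3 (adjusted p = 0.7 and 0.328).

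Signal peptidase, the enzyme that removes signal peptides, was measured through 3 genes, and all 3 were lower in both phases. Sec11c, a catalytic subunit, had log2 levels of 9.08, 8.94, 9.07 and 9.13 in Fed rats, 8.44, 8.53, 8.56 and 8.43 in P2 rats and 8.31, 8.35, 8.55 and 8.38 in P3 rats. The P2 and P3 rats overlapped and all lay below the fed rats, with changes of -0.56 in P2 and -0.66 in P3. Sec11a, the alternative catalytic subunit, had 10.91, 10.83, 10.87 and 10.88 in Fed rats, 10.5, 10.6, 10.59 and 10.64 in P2 rats and 10.25, 10.46, 10.41 and 10.41 in P3 rats. It changed by -0.29 in P2 and -0.49 in P3. For Spcs1, an accessory subunit, the levels were 10.79, 10.67, 10.79 and 10.85 in Fed rats, 10.28, 10.48, 10.59 and 10.55 in P2 rats and 10.25, 10.35, 10.30 and 10.28 in P3 rats. Fed rats were highest for both genes, and Spcs1 fell by 0.30 in P2 and by 0.48 in P3.

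The COPII coat was uneven. Of 11 genes, 5 were lower and 0 higher in P2, and 7 were lower and 1 higher in P3 (7 and 3 with centred arrays), than in Fed rats. Over all genes, 15.5% were lower and 9.66% higher in P2, and 24.3% and 21.1% in P3 (18.4% and 42.2% with centred arrays). Sec13, Sec16b, Sec23a, Sec24d and Sec31a were lower in both phases, Sec24a and Sec31b in P3 only, and Sec24b and both GTPases passed in no comparison. Sec23a, the inner-coat subunit that stimulates the GTPase, had log2 levels of 9.76, 9.67, 9.53 and 9.43 in Fed rats, 9.06, 8.88, 9.0 and 9.08 in P2 rats and 8.72, 8.73, 8.36 and 8.83 in P3 rats. The groups did not overlap, and Sec23a fell by 0.60 in P2 and by 0.94 in P3 against Fed (adjusted p = 0.000924 and 5.58e-06).

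The outer cage is made of Sec13 and Sec31. Sec31a had 9.35, 9.47, 9.28 and 9.21 in Fed rats, 9.13, 8.95, 8.87 and 8.82 in P2 rats and 8.69, 8.49, 8.73 and 8.74 in P3 rats. These were 3 separate ranges, with changes of -0.39 in P2 and -0.66 in P3. Sec13 fell by 0.85 in P2 and by 0.90 in P3, and its P3 rats split into 9.41 and 9.44 in rats 1 and 2 and 10.13 and 9.95 in rats 3 and 4, all below the lowest fed rat. Sec31b, a paralogue in the range of the olfactory receptor genes, changed by -0.54 in P3 and by -0.00 in P2.

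Sec16b, which helps mark the ER sites where vesicles bud, had 6.88, 6.91, 6.90 and 6.89 in Fed rats, 6.76, 6.49, 5.93 and 6.19 in P2 rats and 5.82, 5.58, 5.80 and 5.47 in P3 rats. The P2 rats spread widely between the other groups without overlapping either. It fell by 1.23 ± 0.146 in P3 against Fed (2.34-fold, adjusted p = 8.34e-06), a fold that is not exact because the P3 levels lay near those of the olfactory receptor genes and detection calls were not used.

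The Sec24 subunits choose cargo, and the 3 measured differed in their calls. Sec24d fell by 0.69 in P2 and by 0.59 in P3. Sec24a was lower in P3 only, by -0.70 (adjusted p = 0.000472), with P3 rats between 8.48 and 9.27; in P2 its difference of -0.25 was called when the fit held only the groups compared (adjusted p = 0.031, against 0.192, range 0.031 to 0.363 among alternatives). Sec24b changed by -0.06 and 0.05 and did not pass. The differences between these paralogues were not tested.

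Sec23ip, a partner of Sec23 at exit sites, rose in P3. Its levels were 9.42, 9.28, 9.33 and 9.18 in Fed rats, 9.37, 9.37, 9.31 and 9.38 in P2 rats and 10.11, 10.08, 10.08 and 10.16 in P3 rats. The P3 rats stood clear of the other 8, which overlapped, and the change in P3 against Fed was 0.80 ± 0.0711 (1.75-fold, adjusted p = 4.86e-07). Sar1a and Sar1b, the GTPases that start coat assembly, changed by -0.16 and 0.04 in P2 and by -0.02 and 0.16 in P3 against Fed. Neither passed, although Sar1b and Sec24b were called higher in P3 with arrays centred on their medians (adjusted p = 0.0129 and 0.0353, with alternatives reaching 0.329 and 0.943).

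Both measured SNAREs of the Sec22 family were lower in P2, and Sec22c was not among them. Sec22b, which fuses vesicles between the ER and the Golgi, had log2 levels of 10.47, 10.55, 10.43 and 10.39 in Fed rats, 9.80, 9.52, 9.70 and 9.77 in P2 rats and 9.63, 9.65, 10.19 and 9.79 in P3 rats. All fasted rats lay below the fed rats, with P3 rat 3 nearest to them. Sec22b fell by 0.76 in P2 and by 0.64 in P3 (adjusted p = 0.000268 and 0.000341). Its relative Sec22a had 8.32, 8.04, 8.31 and 8.25 in Fed rats, 7.91, 7.99, 8.11 and 7.97 in P2 rats and 8.18, 8.12, 8.08 and 8.13 in P3 rats. Its groups overlapped, and the P2 difference of -0.24 (adjusted p = 0.0444) was lost in 13 of the 20 alternatives, with adjusted p between 0.0125 and 0.126; these included leaving out any 1 of Fed rats 1, 3 and 4, P2 rats 1, 2 and 4 and P3 rats 2 and 4.

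The measured genes of the COPI coat were all lower in P2, and Copg2 was not among them. All 8 genes fell against Fed in that phase, with a median of -0.56, and 7 of 8 were lower in P3, with a median of -0.62. Copz2, one of the paired zeta subunits, had log2 levels of 9.57, 9.51, 9.67 and 9.67 in Fed rats, 8.78, 8.58, 8.82 and 9.01 in P2 rats and 7.79, 7.81, 7.97 and 7.96 in P3 rats. Each stage lay wholly below the previous one, and the change was -0.81 ± 0.0927 in P2 and -1.72 ± 0.0927 in P3 against Fed (3.29-fold, adjusted p = 4.77e-09).

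The other zeta gene, Copz1, had 9.65, 9.64, 9.78 and 9.80 in Fed rats, 9.14, 9.11, 9.23 and 9.17 in P2 rats and 8.79, 8.95, 8.99 and 8.90 in P3 rats. It showed the same order with smaller steps, at -0.56 in P2 and -0.81 in P3 against Fed; the difference between the zeta genes was not tested. Copg1, a gamma subunit, had 10.44, 10.31, 10.35 and 10.48 in Fed rats, 9.53, 9.31, 9.47 and 9.55 in P2 rats and 9.04, 9.06, 9.45 and 9.38 in P3 rats. For Cope, the epsilon subunit, the levels were 9.56, 9.26, 9.51 and 9.52 in Fed rats, 8.28, 8.26, 8.68 and 8.50 in P2 rats and 8.26, 8.11, 8.54 and 8.32 in P3 rats. Both genes were low in all fasted rats, whose phases overlapped; Copg1 changed by -0.93 in P2 and -1.16 in P3, and Cope by -1.03 and -1.15, which was 2.04-fold and 2.23-fold lower.

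Among the remaining subunits, Copb2, the beta-prime subunit, fell by 0.57 in P2 and by 0.42 in P3; Copb1, the beta subunit, by 0.41 and 0.25; and Copa, the alpha subunit, by 0.37 and 0.24. With arrays centred on their medians the P3 calls of Copb1 and Copa ended, at adjusted p of 0.281 (main 0.00967, alternatives from 0.00492) and 0.414 (main 0.0387, alternatives from 0.00796). Copa also lost its P3 call in 9 other alternatives, among them leaving out any 1 of Fed rats 1, 2 and 3 and P3 rats 1, 2 and 4. Arcn1, the delta subunit, had 11.32, 11.29, 11.23 and 11.20 in Fed rats, 10.88, 10.80, 10.87 and 10.94 in P2 rats and 11.02, 11.03, 11.28 and 11.18 in P3 rats. P2 rats were lowest, by -0.39 against Fed (adjusted p = 0.00223), and P3 rats overlapped the fed rats, with a difference of -0.13 (adjusted p = 0.185).

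The p24 family, whose members escort GPI-anchored and other cargo, held both falls and rises. Of 7 genes, 4 were lower and 1 higher in P2 than in Fed rats. In P3, 4 were lower and 2 higher than in Fed rats (3 and 3 with centred arrays). The shares higher were 14.3% in P2 and 28.6% in P3, beside 9.66% and 21.1% of all genes. Tmed3 had log2 levels of 7.69, 7.56, 7.57 and 7.41 in Fed rats, 6.84, 6.49, 7.0 and 7.03 in P2 rats and 6.17, 6.53, 6.36 and 6.47 in P3 rats. All fasted rats were below the fed rats, and P2 rat 2 lay below P3 rat 2. Tmed3 fell by 0.72 ± 0.119 in P2 and by 1.18 ± 0.119 in P3 against Fed (2.26-fold, adjusted p = 1.93e-06).

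Tmed9 had 10.42, 10.17, 10.37 and 10.43 in Fed rats, 9.53, 9.18, 9.77 and 9.59 in P2 rats and 9.13, 9.27, 9.48 and 9.43 in P3 rats. Tmed1 had 7.27, 7.35, 7.25 and 7.48 in Fed rats, 6.85, 6.62, 6.95 and 7.02 in P2 rats and 6.62, 6.47, 6.51 and 6.50 in P3 rats. Both were lower in every fasted rat, by -0.83 in P2 and -1.02 in P3 for Tmed9 and by -0.48 and -0.81 for Tmed1. Tmed2, the brightest of the 56 genes, fell by 0.35 in P2 and by 0.32 in P3, but its P2 call ended with quantile normalization (adjusted p = 0.0647, against 0.0102, and from 0.00496 over the alternatives) and its P3 call with centred arrays or quantile normalization (0.123 and 0.0593, against 0.00938, and from 0.00374).

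Tmed5 was the 1 gene of the 56 that was higher in each comparison. Its levels were 7.87, 8.36, 8.01 and 7.91 in Fed rats, 8.52, 8.83, 8.98 and 8.83 in P2 rats and 9.44, 9.43, 9.14 and 9.18 in P3 rats. The 3 groups did not overlap, and Tmed5 rose by 0.75 ± 0.127 in P2 (1.68-fold, adjusted p = 0.000596) and by 1.26 ± 0.127 in P3 (2.4-fold, adjusted p = 1.72e-06) against Fed. Tmed4 had 8.90, 8.74, 8.78 and 8.63 in Fed rats, 8.97, 8.96, 9.10 and 9.02 in P2 rats and 9.16, 8.92, 9.48 and 9.49 in P3 rats. Fed rats were lowest; the gene was higher in P3 by 0.50 ± 0.117 (adjusted p = 0.00298), while its P2 difference of 0.24 was called only in the fit of the groups compared (adjusted p = 0.0321, against 0.152, and up to 0.329 over the alternatives). Tmed6 stayed in the dim range and passed no test, although with centred arrays it was called higher in P3 (adjusted p = 0.0333, against 0.224, and up to 0.607).

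Among the KDEL receptors, which return ER-resident chaperones, Kdelr3 had the largest change of all 56 genes. Its log2 levels were 7.72, 7.69, 7.70 and 7.71 in Fed rats, 6.41, 5.81, 6.17 and 6.52 in P2 rats and 5.16, 5.58, 5.70 and 5.38 in P3 rats. The fed rats agreed closely, every P2 rat was lower and every P3 rat lower still. Kdelr3 fell by 1.48 ± 0.143 in P2 against Fed (2.78-fold, adjusted p = 6.3e-06). Its change was -2.25 ± 0.143 in P3 against Fed (4.75-fold, adjusted p = 1.99e-08); in P3 it lay near the olfactory receptor genes, so the fold is not exact.

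Kdelr2 had 10.24, 10.5, 10.33 and 10.24 in Fed rats, 9.77, 9.62, 9.80 and 9.95 in P2 rats and 9.40, 9.51, 9.79 and 9.64 in P3 rats. The fasted rats were lower, by -0.54 in P2 and -0.74 in P3, and the phases overlapped. For Kdelr1 the levels were 10.37, 10.51, 10.39 and 10.42 in Fed rats, 10.34, 10.23, 10.09 and 10.24 in P2 rats and 9.72, 9.81, 9.71 and 9.87 in P3 rats. Its fall was called in P3 only, at -0.65 ± 0.0768 (adjusted p = 8.21e-06). In P2 the difference of -0.20 did not pass (adjusted p = 0.0768, range 0.0461 to 0.237 among alternatives), except without the dimmest 40% of genes.

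Of 4 lectin cargo receptors, 2 were lower in P2 and 3 in P3 than in Fed rats, and 0 were higher in either (1 in P3 with centred arrays). Over all genes, 15.5% were lower in P2 and 24.3% in P3, and 9.66% and 21.1% were higher (42.2% in P3 with centred arrays). Lman1, which exports clotting factors and other glycoproteins, had log2 levels of 10.30, 10.32, 10.24 and 10.16 in Fed rats, 9.76, 9.62, 9.64 and 9.74 in P2 rats and 9.42, 9.37, 9.76 and 9.61 in P3 rats. Lman2, a lectin of the early secretory pathway, had 10.17, 10.22, 10.16 and 10.25 in Fed rats, 9.75, 9.6, 9.90 and 9.91 in P2 rats and 9.48, 9.67, 9.59 and 9.50 in P3 rats. Both were below the fed range in all fasted rats, with changes of -0.56 in P2 and -0.71 in P3 for Lman1 and of -0.41 and -0.64 for Lman2.

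Lman2l, an ER-resident relative of Lman2, had 9.16, 9.19, 9.27 and 9.44 in Fed rats, 9.09, 9.03, 9.23 and 9.10 in P2 rats and 8.46, 8.30, 8.39 and 8.59 in P3 rats. P2 and Fed rats overlapped, and P3 rats were lower than both, by -0.83 ± 0.0891 against Fed (adjusted p = 3.2e-06). The dim Lman1l had 4.10, 4.45, 4.23 and 4.36 in Fed rats, 4.52, 4.42, 4.42 and 4.52 in P2 rats and 4.48, 4.11, 4.65 and 4.42 in P3 rats. Its groups overlapped and it passed no test, except that it was called higher in P3 with arrays centred (adjusted p = 0.0446, against 0.347, and up to 0.924 over the alternatives).

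**Figure D3:**
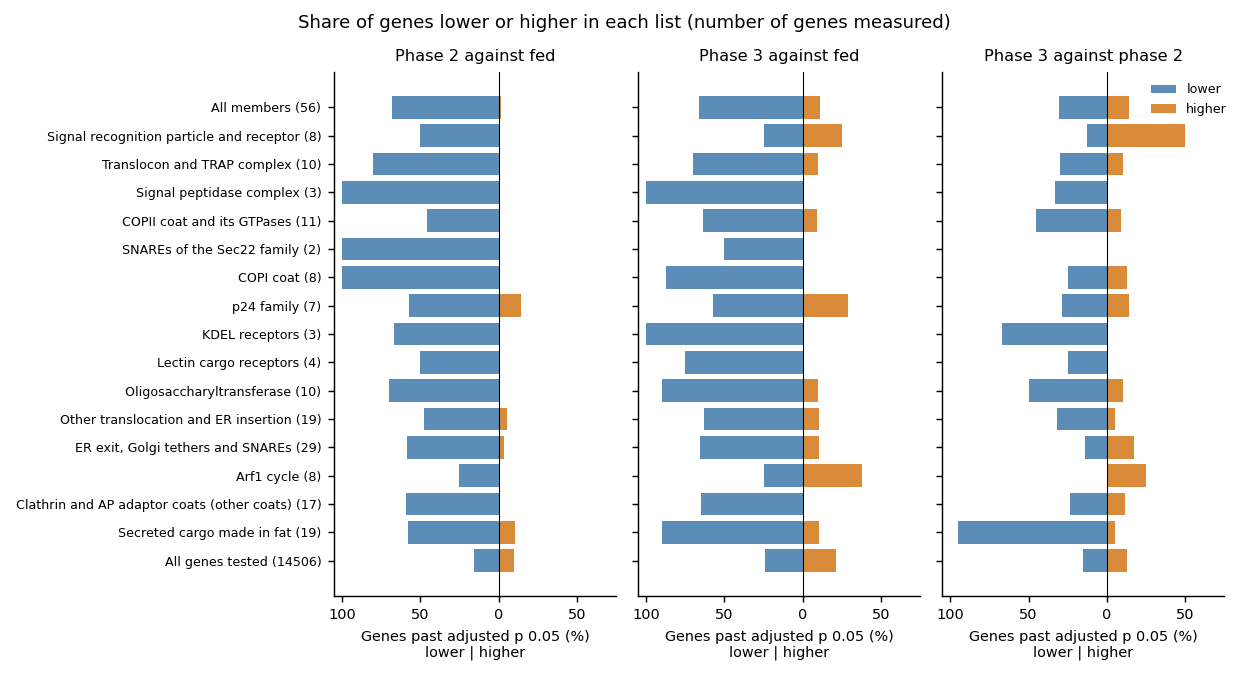
Share of genes called lower (bars to the left) and higher (bars to the right) in each role, in the 56 ER and coat genes together, in the neighbouring lists and over all 14506 genes tested, for P2 against Fed, P3 against Fed and P3 against P2. In P2 against Fed the 8 COPI genes measured reached 100% lower and the 56 genes 67.9%, beside 15.5% of all genes. In P3 against P2 the 56 genes reached 30.4% lower and 14.3% higher, beside 15.1% and 12.8% of all genes.

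Between the 2 phases of fasting the calls went both ways, and the share higher was near that over all genes. In P3 rats 17 of 56 genes were lower (30.4%) and 8 higher (14.3%) than in P2 rats. Of all genes, 15.1% were lower and 12.8% higher. The median change was -0.05, beside 0.03 over all genes. The split of calls depends on the scaling. Relative to the array medians, which differed by -0.09, 9 of the 56 genes were lower and 14 higher. Of all genes, 11.6% were then called lower and 21.5% higher. The share of the 56 genes was somewhat above each of these, and the difference was not tested. Without P2 rat 3 the count higher fell to 5.

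Copz2 had the strongest further fall, by 0.91 ± 0.0927 in P3 against P2 (1.88-fold, adjusted p = 7.27e-06). Kdelr3 fell by a further 0.77, Lman2l and Sec16b by 0.68 each, Sec31b by 0.54, Sec61b and Ssr2 by 0.50 each, Tmed3 by 0.46 and Kdelr1 by 0.45. These 9 genes were lower with centred arrays too and in every other alternative that tested them. Sec31b, in the range of the olfactory receptor genes, was not tested in the fit without the dimmest genes. The other 8 genes called lower, Copz1, Sec11a, Sec23a, Sec24a, Sec31a, Srp14, Ssr1 and Tmed1, changed by between -0.20 and -0.45, and all 8 lost the call with centred arrays.

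Higher in P3 than in P2 were Sec23ip by 0.75, Srp72 by 0.52, Tmed5 by 0.51, Srp68 by 0.47, Srp54a by 0.26, Srpra by 0.29, Arcn1 by 0.25 and Sec63 by 0.24. The first 5 were called in every alternative. Srpra, Arcn1 and Sec63 were not: Srpra was lost in 6 of 20 (adjusted p = 0.0337, range 0.00737 to 0.0992), Arcn1 in 5 (adjusted p = 0.0256, range 0.00482 to 0.0694) and Sec63 in 3 (adjusted p = 0.0196, range 0.00331 to 0.0636). Leaving out P2 rat 3 ended the call of all 3, and leaving out P2 rat 2 or P3 rat 3 or 4 ended those of Srpra and Arcn1; Srpra was also lost without P2 rat 4 and Sec63 without P3 rat 2.

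Several of the weaker falls lost the P3 against P2 call when a single rat was left out. Sec11a and Srp14, with adjusted p just below 0.05, lost it for most omitted rats, including Fed rats outside this comparison. Sec11a (adjusted p = 0.0492, range 0.0264 to 0.248) and Srp14 (adjusted p = 0.0443, range 0.0264 to 0.181) were each lost in 13 of 20 alternatives; Sec11a kept its call only without P2 rat 1, P3 rat 2 or P3 rat 3 among the 12 omissions, and Srp14 only without Fed rat 2, P2 rat 1, P2 rat 2 or P3 rat 2. Sec31a (adjusted p = 0.0354, range 0.022 to 0.134) was lost without P2 rat 1 or 2 or P3 rat 1 or 2. Sec23a (adjusted p = 0.0269, range 0.00799 to 0.07) was lost without P2 rat 1, 3 or 4 or P3 rat 3, and Ssr1 (adjusted p = 0.0253, range 0.0137 to 0.132) without P2 rat 3 or 4 or P3 rat 4. Copz1 (adjusted p = 0.0185, range 0.00978 to 0.101) was lost without P2 rat 3. Sec24a and Tmed1 lost it to no single rat.

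By their 3 calls together, 20 genes were lower in both phases than in Fed rats with no call between the phases, and 13 were lower in all 3 comparisons. Another 4, Kdelr1, Lman2l, Sec24a and Sec31b, were lower in P3 than in either other group. Sec23ip, Sec63, Srp68 and Srp72 were higher in P3 than in either other group. Arcn1, Srp54a and Srpra were lower in P2 than in Fed and higher in P3 than in P2. Sec22a and Sec61a2 were called in P2 against Fed alone, Tmed4 in P3 against Fed alone, and Lman1l, Sar1a, Sar1b, Sec24b, Sec62, Srp19, Srp9 and Tmed6 in no comparison. The comparisons share their rats and are given side by side for that reason. How many of all genes showed each pattern was not counted, so these counts have no baseline.

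Neighbouring machinery of the same pathway was measured through lists of genes that are not among the 56. Beside their counts, 15.5% of all genes were lower and 9.66% higher in P2, and 24.3% and 21.1% in P3, against Fed. With centred arrays these shares were 12.4% and 14.0% in P2 and 18.4% and 42.2% in P3. The oligosaccharyltransferase, which attaches sugar chains to proteins as they enter the ER, had 7 of 10 genes lower in P2 and 9 lower and 1 higher in P3 against Fed, with medians of -0.46 and -0.86. Its subunit gene Rpn1 fell by 0.49 in P2 and by 0.90 in P3, and Rpn2 by 0.48 and 1.03; the gene that was higher in P3 was Magt1, by 0.36. Among 29 genes of ER exit, Golgi tethers and SNAREs, 17 were lower and 1 higher in P2, and 19 were lower and 3 higher in P3 (13 and 7 with centred arrays). Ykt6, a SNARE of the Golgi, changed by -1.64 ± 0.0967 in P2 and -1.65 ± 0.0967 in P3, and Surf4, a cargo receptor of the ER, by -0.89 and -1.25.

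Of 19 other genes of translocation and membrane insertion, 9 were lower and 1 higher in P2 and 12 were lower and 2 higher in P3 (9 and 3 with centred arrays), against Fed. Mmgt1, of the complex that inserts membrane proteins, fell by 0.68 in P2 and by 1.19 in P3.

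Arf1 is the GTPase that recruits the COPI coat. Of 8 genes of its cycle, 2 were lower and 0 higher in P2 than in Fed rats (1 and 2 with centred arrays). In P3, 2 were lower and 3 higher than in Fed rats (0 and 4 with centred arrays). The P3 share lower, 25.0%, was near the 24.3% over all genes, and the share higher was 37.5%, beside 21.1%. Arfgap2, which ends the Arf1 cycle on COPI vesicles, rose by 0.77 ± 0.081 in P3, and Arf1 itself changed by -0.24 in P2 (adjusted p = 0.0348) and -0.14 in P3 (adjusted p = 0.154). Coats of other routes were also lower: of 17 clathrin and AP adaptor genes, 10 fell in P2 and 11 in P3 against Fed, and 0 rose in either (9 lower and 3 higher in P3 with centred arrays). Ap2a2, of the plasma membrane adaptor, fell by 0.75 in P2 and by 1.26 in P3.

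Genes of the cargo itself were mostly lower too. Of 19 genes for proteins that fat secretes, 11 were lower and 2 higher in P2, with a median of -0.54, and 17 were lower and 2 higher in P3, with a median of -1.81, against Fed. Lep, the leptin gene, fell by 4.12 ± 0.308 in P2 and by 6.40 ± 0.308 in P3, and Col3a1, a collagen gene, changed by -0.70 and -2.93. Adipoq changed by -0.06 ± 0.169 in P2 (adjusted p = 0.853) and fell by 1.52 ± 0.169 in P3. Whether the cargo and carrier lists differ was not tested.

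**Figure D4:**
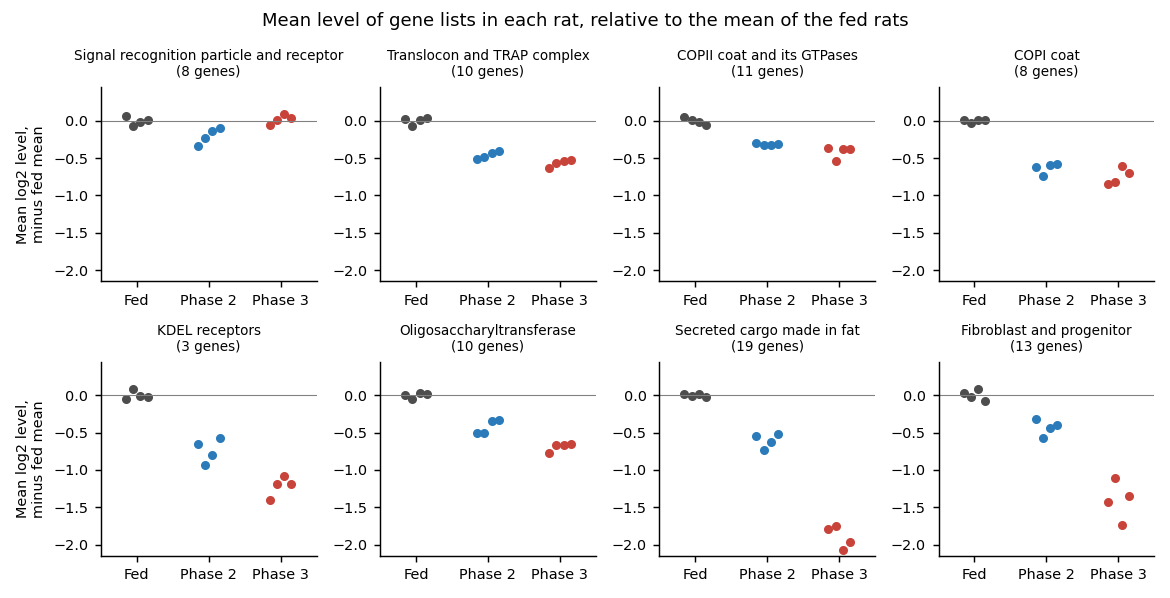
Mean log2 level of the genes of each list in each rat, minus the mean of the 4 Fed rats, in the order Fed, phase 2 (P2) and phase 3 (P3), for 5 roles of the ER and coat genes, the oligosaccharyltransferase, the secreted cargo and fibroblast markers. Points are rats; before the fed mean was subtracted, the 3 KDEL receptor genes averaged 9.44 to 9.57 in Fed, 8.55 to 8.91 in P2 and 8.09 to 8.4 in P3 rats, and the 19 cargo genes 11.57 to 11.62, 10.86 to 11.08 and 9.53 to 9.85.

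Regulators of secretory genes were measured as well. Creb3l1, an ER-bound transcription factor known to activate COPII and collagen genes, had log2 levels of 8.06, 7.96, 8.12 and 8.14 in Fed rats, 6.71, 6.58, 6.61 and 6.84 in P2 rats and 6.04, 5.97, 6.23 and 6.16 in P3 rats. The groups stood apart, and Creb3l1 changed by -1.38 ± 0.0856 in P2 and -1.97 ± 0.0856 in P3 against Fed (adjusted p = 1.24e-07 and 6.83e-10). Its relative Creb3l2 fell by 0.42 in P2 and by 0.87 in P3, and Creb3 by 0.45 and 0.42. Over the list of 13 such factors and ER stress genes, 5 were lower and 0 higher in P2 (3 and 0 with centred arrays). In P3, 5 were lower and 3 higher (4 and 5 with centred arrays). The P3 share higher, 23.1%, was near the 21.1% over all genes, and the share lower was 38.5%, beside 24.3%.

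The unfolded protein response genes named here, Xbp1, Atf6, Atf4 and Hspa5, did not step down through both phases as Creb3l1 did. Xbp1 changed by -0.30 ± 0.102 in P2 (adjusted p = 0.0462), a call that ended with arrays centred, and by -0.03 in P3 (adjusted p = 0.826). Atf6 changed by 0.07 in P2 (adjusted p = 0.607) and rose by 0.54 ± 0.0785 in P3, and Atf4 rose by 1.09 ± 0.0979 in P3. Hspa5, which encodes the ER chaperone BiP, had 12.45, 12.32, 12.26 and 12.39 in Fed rats, 11.57, 11.49, 11.78 and 11.69 in P2 rats and 11.30, 11.69, 12.09 and 11.90 in P3 rats. It was below the fed range in every fasted rat and spread widely in P3; it fell by 0.72 ± 0.137 in P2 and by 0.61 ± 0.137 in P3 against Fed.

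Markers of cell types in the fat pad were counted in the same way. Over all genes, 15.5% were lower and 9.66% higher in P2, and 24.3% and 21.1% in P3, against Fed. With centred arrays the P3 shares were 18.4% and 42.2%. Of 13 fibroblast and progenitor markers, 5 were lower and 2 higher in P2 and 10 were lower and 2 higher in P3 than in Fed rats, and their mean level ranged from 10.50 to 10.66 in Fed, 10.01 to 10.27 in P2 and 8.85 to 9.48 in P3 rats. Of 12 adipocyte markers, 2 were lower and 2 higher in P2 and 11 were lower in P3, with mean levels of 11.36 to 11.40 in Fed, 10.93 to 11.06 in P2 and 9.37 to 10.13 in P3 rats. The median change of these markers was -0.04 in P2 and -1.46 in P3; the 2 lower in P2 were Lep, at -4.12, and Slc2a4, at -1.88. Of 8 mesothelial markers, 5 were lower and 0 higher in each phase (5 and 1 in P3 with centred arrays). Endothelial markers went the other way, with 7 of 9 higher in P2 and 5 in P3 (8 in P3 with centred arrays). Of 8 markers of B cells and of plasma cells, which are rich in ER, 0 were lower and 1 higher in P2 and 2 were lower and 2 higher in P3 (1 and 3 with centred arrays). Among them Jchain averaged 4.65 in Fed, 4.86 in P2 and 4.55 in P3 rats, within the range of the olfactory receptor genes. The 1 marker higher in P2 was Irf4, by 2.39 ± 0.808 against Fed. Irf4 levels in P3 rats 1 to 4 were 10.99, 6.10, 10.67 and 10.37. Of 14 macrophage markers, 1 was lower and 2 higher in P2 and 4 were lower and 4 higher in P3 (1 and 6 with centred arrays); the P3 share of 28.6% each way was near that over all genes. Of 9 mast cell markers, 0 were lower and 2 higher in P2 and 1 was lower and 1 higher in P3 (1 and 2 with centred arrays). The part of these shifts in the changes of the ER and coat genes was not tested.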

How the data were processed

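RNA of the fat pad of 12 rats was measured, with 1 array per rat. The authors made the deposited log2 levels with RMA, per the submitters' processing notes, which also name GCOS and Affymetrix Expression Console 1.1. RMA subtracts background, quantile-normalises the arrays and summarises each probe set. Library version, detection calls and batches were not used here. The labels number the rats within groups and do not say that numbers are shared. The p-values set differences of group means against the spread between rats within groups, and 4 rats per group limit precision. Array medians over all 29215 probe sets lay between 6.026 and 6.132.

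Genes were named through the platform annotation of 2016, which gave 1 gene for 15310 probe sets, several for 323 and none for 13582. The brightest probe set stood for each of 527 genes with more than 1, leaving 14506 genes, of which 14481 matched RefSeq. The 56 members lay on 58 probe sets, all 56 matched and 0 symbols changed. limma 3.58.1 in R 4.3.3 fitted 1 mean per group over all 12 arrays (lmFit, eBayes), and adjusted p-values follow Benjamini-Hochberg over all genes. The fit was tested on simulated data. Python 3.11.15, pandas 2.3.3 and matplotlib 3.10.9 did the rest. Promoter windows are RefSeq's, on GRCr8.

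Alternatives per comparison were 20: arrays centred on their medians, quantile and cyclic loess normalization, omission of the dimmest 40% of genes, an intensity trend with robust prior, the mean of a gene's probe sets, only the groups compared, the replicate number as a block, and omission of each rat. Numbers shared between groups did not pair the rats. Every member is named; values in each rat are given for up to 4 members of a role with the smallest adjusted p and for those moving against their role. Companion genes are up to 3 per list and comparison by adjusted p, plus Adipoq, Lep, Xbp1, Hspa5, Creb3l1 and Creb3l2. Members, lists and rules were chosen with earlier results of these data known.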

Additional observations from a re-analysis of the deposited data

Results flagged for a closer look

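In 6 of 168 groups of 4 rats (3.57%), 1 rat lay far from the other 3 by Dixon's criterion; chance gives about 1 in 20 such groups. Srp9 was low in P2 rat 1, at 8.13 with the other P2 rats between 9.12 and 9.32, and in Fed rat 2, at 8.62 with the other fed rats at 9.30. Copb2 was low in P3 rat 1, at 10.52 against 10.71 to 10.75 in the other P3 rats, and Ssr2 in the same rat, at 8.84 against 9.10 to 9.14. Ssr1 was low in P3 rat 4, at 9.34 against 9.46 to 9.48. Sec23ip was low in P2 rat 3, at 9.31 against 9.37 to 9.38, a gap of small size in a tight group.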

How the results depend on the processing

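Of the 39 calls in P2 against Fed, 35 held in every alternative that tested the gene. So did 40 of 43 in P3 against Fed and 14 of 25 in P3 against P2, and no call changed sign. Each called gene was tested in all 20 alternatives except Sec31b, which was not in the fit without the dimmest 40% of genes. With arrays centred on their medians the count higher was 2 in P2 against Fed (Sec63 joined Tmed5) and 10 in P3 against Fed (Lman1l, Sar1b, Sec24b and Tmed6 joined), and in P3 against P2 it was 9 lower and 14 higher. Quantile and cyclic loess normalization also gave 2 higher in P2 against Fed, as did the fit of only the groups compared (with Tmed4). Leaving out 1 rat at a time gave 35 to 38 lower in P2 against Fed, 36 to 37 lower and 6 higher in P3 against Fed, and 12 to 18 lower and 5 (without P2 rat 3) to 9 higher in P3 against P2. With a replicate block, 37 were lower and 1 higher in P2 against Fed, 36 and 6 in P3 against Fed, and 14 and 7 in P3 against P2. Rats of the same number did not pair, with correlations of their deviations between -0.155 and 0.188. Dim signal limits Tmed6, Lman1l and Sec31b, and the P3 levels of Kdelr3 and Sec16b.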
